A study of Mus musculus with 2 samples.

Results

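Fibroblast growth factor (FGF) signalling was described through 37 genes of 4 kinds: 18 secreted ligands, 4 intracellular FGFs, 5 receptors, and 10 feedback inhibitors and transcription factors of the pathway. The members were listed by symbol and not by a measured value, though earlier results of these data were known. They were looked up among the 43346 mouse genes of the deposited tables. Of the 37 symbols, 36 matched a gene. Spry3 was not analysed here, which left 9 feedback genes and factors. The tissue was the neural tube of mouse embryos of strain B6NCrl at embryonic day 13.5, taken from pooled males and females with no treatment named. Long total RNA was sequenced in 2 libraries, biological replicates 2 and 1 of 1 group, each from 10 ng of RNA with spike-in RNA added. Both carry the same donor label and the labels do not say whether they came from separate litters, so differences between them may be technical. The p-values set the difference between these libraries against counting noise only and do not measure spread between replicates. With 1 group, the comparisons were between genes, between transcripts and between the libraries.

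FGFs are signalling proteins of vertebrate development. The secreted members bind receptor tyrosine kinases together with heparan sulfate chains of the cell surface, and the receptor then drives the RAS-ERK cascade. That cascade switches on ETS-family transcription factors and a set of inhibitors (Sprouty and Spred proteins and the phosphatase DUSP6) that damp it again, and transcripts of these genes are commonly used as readouts of FGF activity. The FGF homologous factors are made like FGFs but lack a secretion signal, stay in the cell and bind voltage-gated sodium channels in neurons. In the neural tube, FGFs are known for patterning the early axis, for the upkeep of progenitors and for glial specification.

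Levels are given in TPM (transcripts scaled to a fixed sum in each library), a unit corrected for transcript length, so that genes can be set against each other. Detection meant a level of at least 1 TPM in each library. Total estimated counts were 22311849 in replicate 2 and 34125110 in replicate 1, and the replicates' common biological coefficient of variation was 9.23%. Markers of the labelled tissue were present: 6 of 7 neural progenitor genes, 6 of 6 neuronal genes and 4 of 4 Hox genes of spinal levels were detected, and 0 of 4 forebrain genes. Markers of neighbouring tissues were present too and differed between the libraries. The 6 skeletal muscle genes summed to 116 TPM in replicate 2, against 39.4 TPM in replicate 1. The summed level of 6 surface ectoderm genes was 20.5 and 7.62 TPM in these libraries, and that of 6 sensory ganglion genes was 619 and 791 TPM. No gene of these 3 lists was at 0 in either library.

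Of the 36 members, 21 were detected (58.3%), against 61.8% of 21474 protein-coding genes and 34.7% of all mouse genes. All 9 feedback genes and factors, all 4 intracellular FGFs and 4 of 5 receptors were detected, but 4 of 18 secreted ligands. Summed over its members, each kind differed widely in level: 202.6 and 219 TPM for the intracellular FGFs in replicates 2 and 1, 129 and 124 TPM for feedback genes and factors, 101 and 83.6 TPM for receptors, and 49.7 and 43.1 TPM for secreted ligands. In 13 members the mean level was 10 TPM or more.

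**Figure D1:**
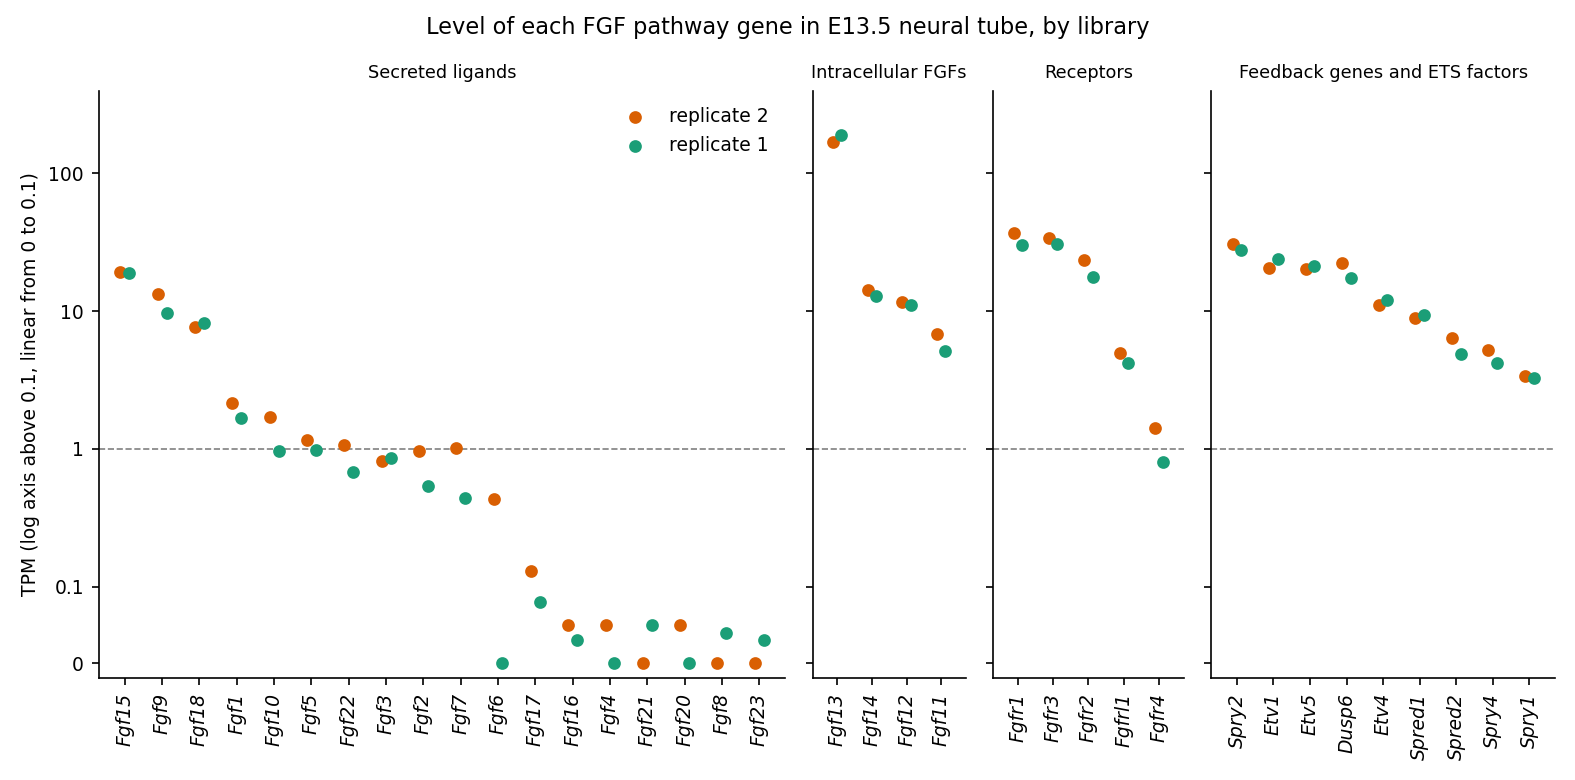
TPM of each member (vertical axis, logarithmic above 0.1 TPM and linear from 0 to 0.1 TPM), with replicate 2 in orange and replicate 1 in green, grouped by kind and ordered by mean level. The dashed line is the detection level of 1 TPM, which all 9 feedback genes and factors exceed and most secreted ligands do not. Fgf13 lies above every other member in both libraries.

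Among secreted ligands the transcript pool was held by few genes. Fgf15 was the highest at 19.2 TPM in replicate 2 and 18.9 TPM in replicate 1, followed by Fgf9 at 13.3 and 9.70 TPM and Fgf18 at 7.68 and 8.17 TPM. The libraries did not overlap between any neighbours in this order of 3. Fgf15, on chr7:144896531-144900953, is the mouse counterpart of human FGF19. It acts as an endocrine ligand in the gut and is made by neural progenitors in the embryo. Fgf9 encodes a ligand that favours the IIIc forms of the receptors, and Fgf18 encodes a member of the FGF8 subfamily. Fgf15 held 41.2% ± 3.69 of the summed TPM of the 18 secreted ligands, Fgf9 24.6% ± 2.97 and Fgf18 17.2% ± 2.47 (SD, n = 2). Together these 3 genes held 83.0% ± 3.19. The antisense gene Gm26793 shares 761 exon bases with Fgf15 on the other strand, and the handling of strand is not given in the sources used here, so their reads may not be told apart. Gm26793 had 2.61 and 2.75 TPM in replicates 2 and 1.

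Fgf1, an acidic FGF that binds all receptor forms, was the fourth detected ligand at 2.16 TPM in replicate 2 and 1.67 TPM in replicate 1. Its counts were in the other order, 74 in replicate 2 and 147 in replicate 1. In replicate 2, 40.95% of its TPM was assigned to the short retained-intron transcript Fgf1-207, which had 0% in replicate 1. That share rested on 3.08 estimated counts on 342 bases, against 70.92 counts for Fgf1-201 in the same library. The scaled count ratio was 0.762 (exact 95% interval 0.569 to 1.01), which did not pass the test (exact binomial, adjusted p = 0.171).

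The next 6 ligands lay near the detection level, with overlapping libraries between all neighbours from Fgf1 to Fgf7 in the order of mean level. Fgf10, a mesenchymal ligand of FGFR2 IIIb, had 1.69 TPM in replicate 2 and 0.97 TPM in replicate 1. Fgf5, known for ending the growth phase of hair follicles, had 1.16 and 0.98 TPM, and Fgf22, a ligand at forming synapses, had 1.07 and 0.68 TPM from 6 counts in each library. Fgf3, a hindbrain and inner-ear ligand, had 0.81 and 0.86 TPM. Fgf2, basic FGF, had 0.96 and 0.54 TPM from 4 and 8 counts, and Fgf7, another mesenchymal ligand of FGFR2 IIIb, had 1.02 and 0.44 TPM from 34 and 18 counts. In Fgf10, Fgf5, Fgf22 and Fgf7, replicate 2 had the higher TPM and was the library in which the gene passed 1 TPM. For Fgf2 the direction rested on a transcript, Gm43439-201, that the GENCODE M21 annotation places in another gene and that held 0.80 TPM in replicate 2 and 0 in replicate 1. Fgf2-201 itself had 0.15 and 0.54 TPM, and the scaled count ratio of the gene was 0.757 (exact 95% interval 0.167 to 2.83), below 1. Rnf126 shares 82 exon bases with Fgf22, and Nudt6 shares 640 with Fgf2, both on the opposite strand.

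The other 8 secreted ligands were almost without reads. Fgf6, a ligand known from skeletal muscle, had 7 counts (0.43 TPM) in replicate 2 and none in replicate 1. After scaling for depth the exact 95% interval of the Fgf6 ratio, replicate 2 over replicate 1, started at 2.18. That interval covers counting error only, and Fgf6 had too few counts for the main test between the libraries. Micu3 shares 202 exon bases with Fgf20 on the opposite strand. Fgf17 had 3 counts in each library and Fgf16 had 1 in each. Fgf4 had 2 counts and Fgf20 had 1 in replicate 2, and both had 0 in replicate 1. Fgf8, Fgf21 and Fgf23 each had 0 counts in replicate 2 and 1 in replicate 1. Fgf8 is the isthmus and tailbud organiser ligand, Fgf17 its close relative, Fgf4 an embryonic axis ligand, Fgf16 and Fgf20 belong to the FGF9 subfamily, and Fgf21 and Fgf23 are hormones of liver and bone. The 3 counts that a 0 allows correspond to 0.255 TPM for Fgf8 in replicate 2, and to 0.0453 TPM for Fgf4 and 0.142 TPM for Fgf20 in replicate 1. A count of 0 thus does not exclude transcripts of these genes below such levels, and intervals and floors cover counting error only. In these whole-tissue samples, fewer cells that make a transcript and less of it per cell cannot be told apart.

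The intracellular FGFs held most FGF transcripts. They made up 80.3% of the summed TPM of all 22 FGF genes in replicate 2 and 83.5% in replicate 1 (81.9% ± 2.29, SD, n = 2). Fgf13 alone held 69.9% ± 3.64 of all FGF TPM. It stood at 169.85 TPM in replicate 2, against 189.93 TPM in replicate 1, above 96.4% of protein-coding genes by mean level, and the next member, Fgfr1, reached 37.2 TPM at most. Fgf13, on chrX:59062145-59568071, encodes a sodium channel partner that also binds microtubules in growing neurons. Fgf14, which clusters sodium channels at the axon initial segment, had 14.2 and 12.9 TPM in replicates 2 and 1. Fgf12, a partner of neuronal and cardiac sodium channels, had 11.72 and 11 TPM, and Fgf11, the fourth homologous factor, had 6.82 and 5.13 TPM. The libraries did not overlap between any neighbours of this order.

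**Figure D2:**
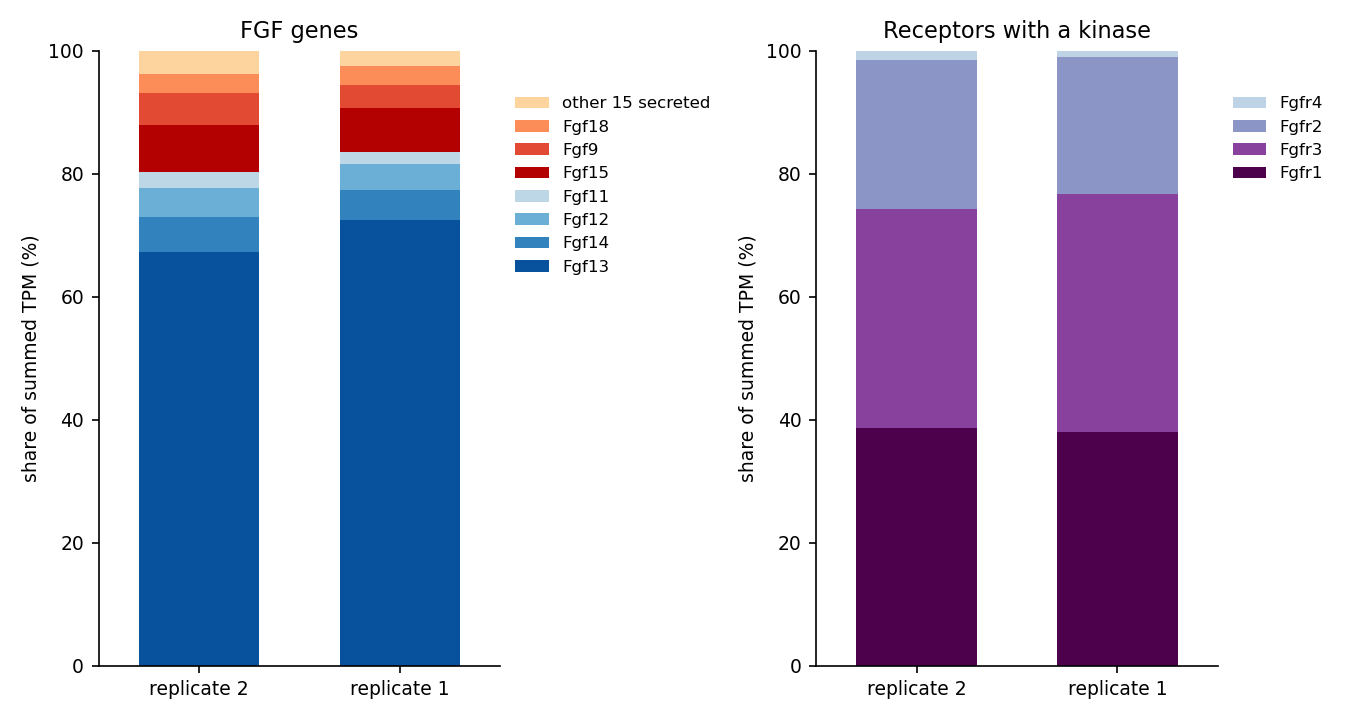
Stacked shares (percent of summed TPM) in replicate 2 (left bar of each panel) and replicate 1 (right bar). The left panel covers the 22 FGF genes, with intracellular FGFs in blue and secreted ligands in red, and Fgf13 as the lowest block at 67.3% and 72.5%. The right panel covers the 4 kinase receptors, where Fgfr1 and Fgfr3 together fill most of each bar.

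The FGF homologous factors are made in forms that differ in their first coding exon, and the amino end these exons encode sets where the protein goes in the cell. The first coding exons of Fgf13 are shown because its transcript pool was split among them, each from its start codon (capitals) to its splice donor, 5′ to 3′, read from the GENCODE M21 transcripts on mm10.
Fgf13-202 (chrX:59166013-59166040, minus strand): ATGgctttgttaaggaagtcatattcag
Fgf13-206 (chrX:59567140-59567188, minus strand): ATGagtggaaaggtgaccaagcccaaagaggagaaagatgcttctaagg
Fgf13-201 (chrX:59133877-59134063, minus strand): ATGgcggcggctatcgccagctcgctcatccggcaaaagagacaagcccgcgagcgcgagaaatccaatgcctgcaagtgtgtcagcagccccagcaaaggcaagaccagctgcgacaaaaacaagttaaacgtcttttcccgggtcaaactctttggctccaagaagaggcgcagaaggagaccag
The form with the 28-base first coding exon, Fgf13-202, had 107.91 TPM in replicate 2 and 131.17 TPM in replicate 1, which was 63.5% and 69.1% of the gene (66.3% ± 3.91, SD, n = 2). The 49-base exon is shared by 3 transcripts, Fgf13-206, Fgf13-205 and Fgf13-208, which together held 22.4% and 21.1%. Fgf13-201, with the 187-base exon, held 7.56% and 6.33%. Fgf13-203, whose coding part starts inside the 49-base exon, held 5.68% and 2.57%. By TPM the order of these 4 forms was the same in both libraries. It rests in part on correction for length, since the transcripts with the 49-base exon are short. Fgf13-206 (456 bases), Fgf13-205 (575) and Fgf13-208 (617) had estimated counts of 119.5, 94.8 and 5.99 in replicate 2. In replicate 1 they had 212, 143 and 6.11. Each had fewer than Fgf13-201 (2499 bases, 442 and 652 in replicates 2 and 1) and Fgf13-203 (2237 bases, 295 and 236). The authors' posterior standard deviation was 119 reads in replicate 2 and 168 in replicate 1 for Fgf13-202, and 125 and 173 for Fgf13-203.

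Among receptors, Fgfr1 and Fgfr3 led at similar levels. Fgfr1 had 37.2 TPM in replicate 2 and 30.1 TPM in replicate 1, and Fgfr3 had 34.2 and 30.7 TPM, so that their libraries overlapped. Fgfr2 was lower at 23.4 and 17.7 TPM, without overlap with Fgfr3. Fgfrl1, whose product has the ligand-binding ectodomain but no kinase, had 4.97 and 4.21 TPM. Fgfr4 was the receptor not counted as detected, since it had 1.42 TPM in replicate 2 but 0.80 TPM in replicate 1, from 56 and 58 counts. Of the summed TPM of the 4 kinase receptors, Fgfr1 held 38.3% ± 0.499, Fgfr3 37.2% ± 2.20, Fgfr2 23.3% ± 1.37 and Fgfr4 1.24% ± 0.331 (SD, n = 2). FGFR1 is the broad receptor of progenitors and mesenchyme, FGFR2 serves epithelia and glia as well as mesenchyme, and FGFR3 is known for radial glia and astrocyte precursors in the spinal cord and for restraining cartilage growth. Summed levels of 5 genes listed as cartilage markers were 147 TPM in replicate 2 and 105 TPM in replicate 1. Most of this came from Col2a1 (68.2 and 50.7 TPM) and Sox9 (55.5 and 36.8 TPM). Matn1 (3.49 and 3.16 TPM) and Acan (1.45 and 0.71 TPM) were lowest, and Acan was not detected. The part of cartilage cells in the receptor levels was not tested.

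Part of the Fgfr2 level rested on an unusual transcript. Fgfr2-217 held 24.3% of the gene's TPM in replicate 2 and 28.7% in replicate 1. It has 7 exons, 5 of them inside the span of the main transcript Fgfr2-207. The other 2 lie far upstream in the gene Ctbp2, and all 314 of their bases fall on Ctbp2 exons of the same strand. On chromosome 7, Fgfr2-207 spans 130162512 to 130266245, while Fgfr2-217 reaches 133123350. Ctbp2 had 71.2 and 54.3 TPM in replicates 2 and 1. Without Fgfr2-217, Fgfr2 stood at 17.7 TPM in replicate 2, against 12.6 TPM in replicate 1, still below Fgfr1 and Fgfr3 and above Fgfrl1. How many reads of this transcript came from Ctbp2 was not tested.

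FGFR1, FGFR2 and FGFR3 each choose between alternative exons for the second part of the third Ig-like domain, which contacts the ligand. The upstream exon makes the IIIb form, typical of epithelia, and the downstream exon makes the IIIc form, typical of mesenchyme and neural tissue. FGF7, FGF10 and FGF22 act through IIIb forms, and FGF9 and the FGF8 subfamily act through IIIc forms. The exon pair of Fgfr3 is shown as the example on which such isoform shares rest. Both exons are given whole, 5′ to 3′ on the coding strand, from GENCODE M21 transcripts on mm10, in lower case with no part marked.
Fgfr3 IIIc (chr5:33732117-33732261, plus strand): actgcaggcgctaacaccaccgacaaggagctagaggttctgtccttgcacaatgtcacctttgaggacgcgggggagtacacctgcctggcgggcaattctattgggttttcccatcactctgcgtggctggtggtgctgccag
Fgfr3 IIIb (chr5:33731281-33731431, plus strand): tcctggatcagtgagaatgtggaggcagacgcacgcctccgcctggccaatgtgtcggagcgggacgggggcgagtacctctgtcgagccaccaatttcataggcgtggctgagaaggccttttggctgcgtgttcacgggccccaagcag
The IIIc exon of Fgfr3 has 145 bases and its IIIb exon has 151. In a global alignment the pair was 50.6% identical.

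The IIIc form led in all 3 receptors and in both libraries. For Fgfr1, transcripts with the IIIc exon had 28.8 TPM in replicate 2 and 23.9 TPM in replicate 1, and the IIIb transcripts Fgfr1-213 and Fgfr1-214 had 0 in both, so that the IIIc share was 100%. By counting error alone, a count of 0 allows 0.0743 TPM for Fgfr1-213 and 0.0451 TPM for Fgfr1-214 in replicate 2. In replicate 1 these floors were 0.0471 and 0.0286 TPM. They leave out the error of assigning reads among transcripts, so they are not upper limits. The authors' posterior mean TPM was higher, at 0.30 for Fgfr1-213 and 0.17 for Fgfr1-214 in replicate 2, and 0.16 and 0.14 in replicate 1. Another transcript, Fgfr1-208, is annotated as a target of nonsense-mediated decay and holds both exons; it had 1.25 and 0.84 TPM and was left out of the share. For Fgfr2, IIIc transcripts had 11.7 TPM against 1.51 TPM for IIIb in replicate 2, and 7.96 against 1.72 TPM in replicate 1. The IIIc share of Fgfr2 was thus 88.5% and 82.2% (85.4% ± 4.45, SD, n = 2). For Fgfr3, IIIc transcripts had 27.8 TPM against 2.76 TPM for IIIb in replicate 2, and 25.8 against 1.96 TPM in replicate 1. The IIIc share of Fgfr3 was 91.0% and 92.9% (91.9% ± 1.40), and all of the IIIb level came from Fgfr3-211. For that transcript the authors' posterior standard deviation was 92.4 reads in replicate 2 and 104 in replicate 1, beside estimated counts of 154.93 and 173.94.

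**Figure D3:**
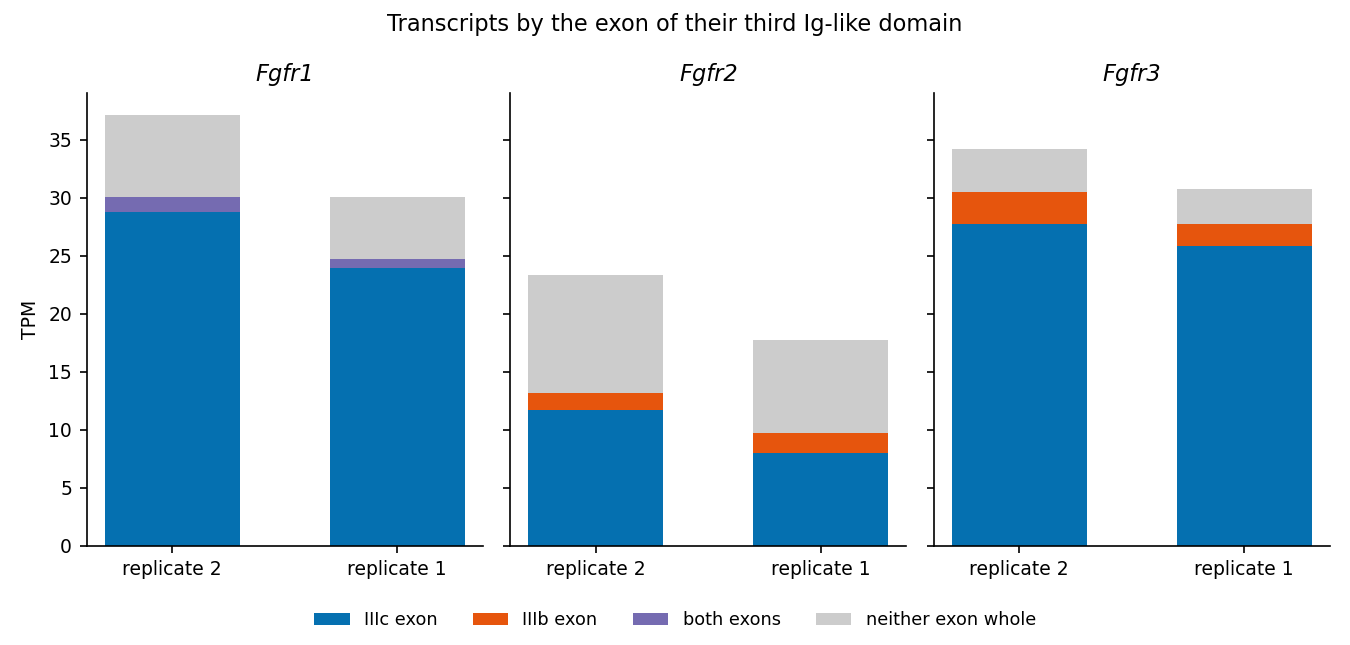
TPM of transcripts (vertical axis) of Fgfr1, Fgfr2 and Fgfr3, with replicate 2 left of replicate 1 in each panel. Bars are stacked by whether a transcript holds the IIIc exon, the IIIb exon, both or neither, by exact annotated bounds. The class of neither is labelled as neither exon whole. The IIIc block is the largest in every bar but that of Fgfr2 in replicate 1. There, transcripts classed as neither had 8.05 TPM against 7.96 TPM for IIIc.

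Transcripts in which neither exon had its exact annotated bounds held 18.4% of Fgfr1, 44.5% of Fgfr2 and 10.3% of Fgfr3 on average. They were left out of the shares, and for Fgfr2 they include Fgfr2-217. Whether any of them holds either exon inside a longer exon was not tested. Exon structures came from GENCODE M21, and of the 157 member transcripts found there 20 had another length than in the deposited tables, 6 of them among the 53 transcripts of Fgfr1 to Fgfr3. The Fgfr2 IIIb share was 11.5% in replicate 2 and 17.8% in replicate 1. It rested on few estimated counts, 27.52 and 65.45 for Fgfr2-211 and 27.07 and 36.69 for Fgfr2-208. Their posterior standard deviations were 16.34 and 18.85 reads, and 9.03 and 10.22 reads. The 6 surface ectoderm genes, an epithelial source, summed to 20.5 and 7.62 TPM in replicates 2 and 1, and the part of such cells in the share was not tested. Genes of splice regulators that act on these exons were listed too, and 5 of 7 were detected. Ptbp2 (147 TPM on average), Rbfox1 (138), Ptbp1 (75.0) and Rbfox2 (68.4) were highest. Esrp1 and Esrp2, which encode epithelial regulators, were below the detection level. Esrp1 had 0.15 and 0.16 TPM and Esrp2 had 0.25 and 0.95 TPM in replicates 2 and 1. The part of any of these regulators in the IIIb and IIIc shares was not tested.

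Feedback genes and ETS factors were all detected, between 3.33 and 29.4 TPM on average. Spry2, a Sprouty inhibitor of the receptor-to-RAS step, was highest at 30.9 TPM in replicate 2 and 27.9 TPM in replicate 1, without overlap with the next. Etv1 had 20.6 and 23.8 TPM, Etv5 had 20.1 and 21.1 TPM and Dusp6 had 22.3 and 17.5 TPM, and neighbours among these overlapped. ETV1, ETV4 and ETV5 are the PEA3-type ETS factors induced by ERK signalling, and DUSP6 is the phosphatase that removes the activating phosphates of ERK. Etv4 followed at 11.1 and 12.1 TPM. Spred1, which brings neurofibromin to the membrane to switch off RAS, had 8.97 and 9.41 TPM, and its relative Spred2 had 6.43 and 4.86 TPM. Spry4 had 5.22 and 4.18 TPM and Spry1 had 3.39 and 3.28 TPM, again without overlap between them. The 3 ETS factors summed to 51.8 TPM in replicate 2, against 57.0 TPM in replicate 1, and the 3 Sprouty genes to 39.5 and 35.4 TPM. Etv1 is also a marker of particular motor and sensory neuron groups, and the summed level of sensory ganglion genes was lower in replicate 2 as well (619 against 791 TPM); the part of such cells in the Etv1 level was not tested.

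Other genes of the pathway were counted from 7 lists, and in none was a gene called different between the libraries at 2-fold. At any fold, genes with an adjusted p under 0.05 (exact binomial) ran from 1 higher and 0 lower in replicate 2 among the 15 other feedback genes to 6 higher and 2 lower among the 14 core proteins, against 24.6% of all genes tested (12.8% higher and 11.8% lower). All 12 genes of the RAS-ERK cascade were detected, with Araf at 206 TPM and Map2k2 at 173 TPM on average highest, and Nf1, the neurofibromin gene, lowest at 4.90 TPM. Of 15 co-receptors and adaptors, 13 were detected. The adaptor gene Grb2 led at 139 TPM, ahead of Plcg1 (50.5), Flrt3 (29.7) and Frs3 (26.6). Klb, the co-receptor gene through which FGF15 and FGF21 act as hormones, had 0.06 and 0.08 TPM in replicates 2 and 1, and Kl, that of FGF23, had 0.39 and 0.33 TPM.

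Of 15 further feedback and ERK response genes, 14 were detected. Dusp4 (65.8 TPM), Myc (45.0), Ier2 (26.5) and Ets2 (19.8) were highest and Dusp9 (1.02) was lowest. All 14 heparan sulfate core protein and FGF carrier genes were detected, led by Gpc2 (143 TPM), Gpc3 (123), Agrn (91.5) and Fgfbp3 (88.6), with Fgfbp1 lowest at 3.84 TPM. Of 15 genes for heparan sulfate synthesis and trimming, 14 were detected, with Sulf2 (94.9 TPM), Ext2 (56.6), Sulf1 (29.2) and Hs3st1 (19.7) highest and Hs6st3 (0.935) lowest. SULF1 and SULF2 are sulfatases that trim heparan sulfate outside the cell. For the intracellular FGFs, 7 of 9 channel and scaffold partners were detected. Mapk8ip2 (58.6 TPM), Scn3a (34.2), Scn9a (25.9) and Scn2a (14.4) were highest and Scn11a, a sensory neuron channel, was lowest at 0.215 TPM.

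Differences between the libraries were tested for 26 members with a mean count of 10 or more; the other 10, all secreted ligands, had 10 counts or fewer in both libraries. The two-sided exact binomial test set rounded counts against library sizes after TMM scaling (trimmed mean of M values), with Benjamini-Hochberg adjustment over 17428 genes. It compares these libraries with counting noise, not conditions. Of the 26 members, 1 passed an adjusted p of 0.05 with a difference of 2-fold or more, which defines a called gene. The background was 2.25% of all genes tested (392 of 17428), 1.46% higher and 0.792% lower in replicate 2. At any fold 10 members passed (38.5%), 8 higher in replicate 2 and 2 lower, against 24.6% of all genes tested (12.8% higher and 11.8% lower). The median log2 ratio of replicate 2 over replicate 1 was 0.08 over the 26 members and 0.00 over all genes tested, and the median size of the ratio was 0.19 and 0.14.

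**Figure D4:**
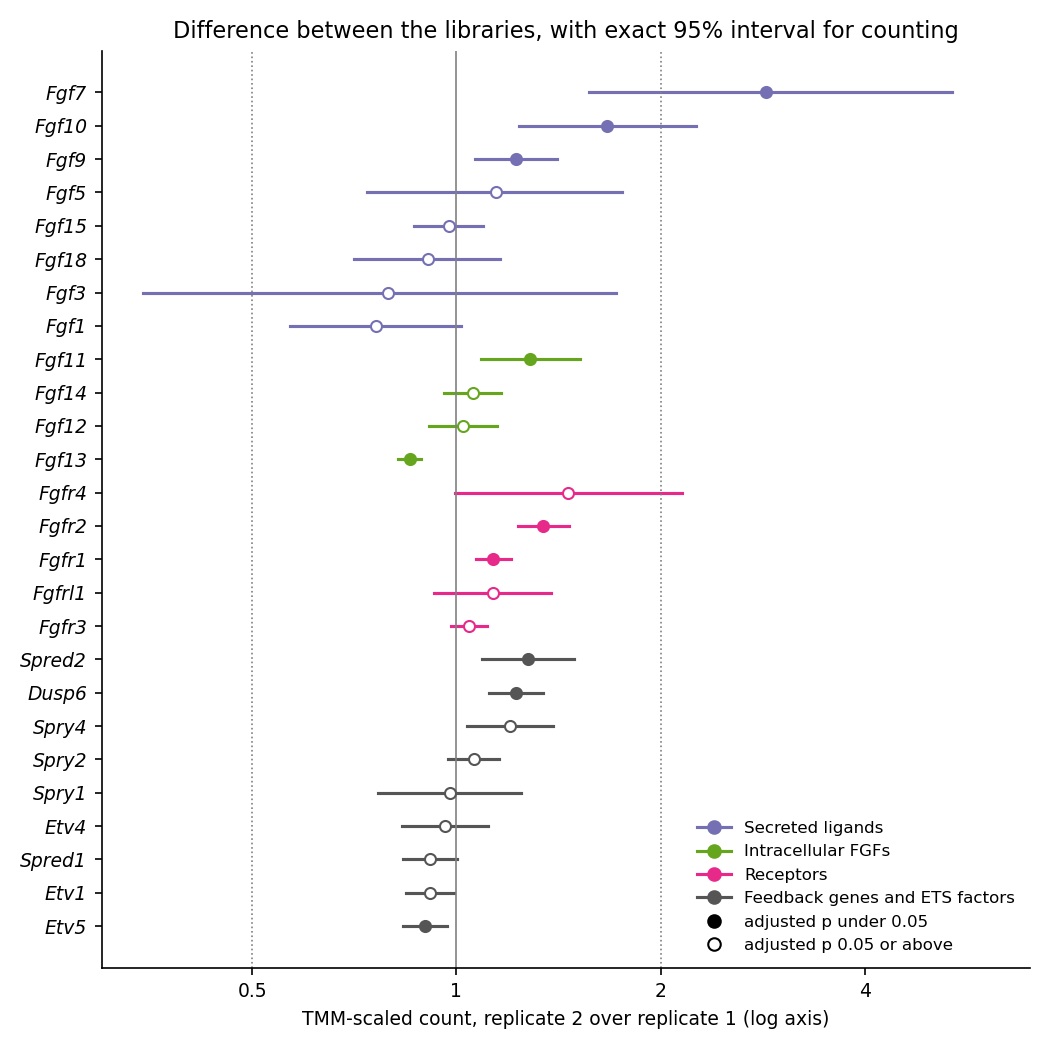
Ratio of TMM-scaled counts in replicate 2 over replicate 1 (horizontal logarithmic axis) for the 26 members tested, with the exact 95% interval for counting error. Filled points had an adjusted p under 0.05, and dotted lines mark 2-fold differences. Fgf7 is the member past 2-fold, and most other points lie within 1.5-fold of equal levels.

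The called member was Fgf7, with 34 counts in replicate 2 and 18 in replicate 1 although replicate 1 was sequenced more deeply. The scaled ratio was 2.86 (exact 95% interval 1.57 to 5.38, exact binomial, adjusted p = 0.00245). Fgf10, of the same subfamily, was 1.67-fold higher in replicate 2 (1.24 to 2.25, adjusted p = 0.00392, exact binomial) from 97 and 88 counts. The 6 skeletal muscle markers were all called higher in replicate 2, and so were 5 of 6 surface ectoderm markers, while the 5 cartilage markers included 4 with an adjusted p under 0.05 and a higher level there. The 6 mesenchyme markers went both ways, with Prrx1 called higher, Col1a1 and Twist1 also higher at an adjusted p under 0.05, and Col3a1 and Dcn lower. Together they summed to 743 TPM in replicate 2, against 699.65 TPM in replicate 1. The part of such cells in the Fgf7, Fgf10 and Fgf6 levels was not tested.

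Among more abundant members, Fgfr2 was 1.34-fold higher in replicate 2 (interval 1.23 to 1.46, exact binomial, adjusted p = 7.35e-10) and Fgfr1 1.13-fold (1.07 to 1.20, adjusted p = 0.000398). Fgf11 (ratio 1.29), Spred2 (1.28), Fgf9 (1.23) and Dusp6 (1.22) were higher in replicate 2 as well, with adjusted p between 0.000151 and 0.0195. Fgf13 was lower in replicate 2, at a ratio of 0.854 (0.821 to 0.888, exact binomial, adjusted p = 4.24e-14) on 4048 and 7178 counts. Etv5 was lower at a ratio of 0.898 (adjusted p = 0.0248, exact binomial), but with spike-in scaling its adjusted p was 0.375. The neuronal markers moved the same way as Fgf13, with 4 of 6 lower in replicate 2 at an adjusted p under 0.05 (Tubb3, Stmn2, Elavl4 and Elavl3), 0 higher and a summed level of 3368 TPM in replicate 2 against 3493 TPM in replicate 1. So did the sensory ganglion markers, 5 of 6 of them lower at that threshold, and the part of such cells in the Fgf13 level was not tested. The other 16 members tested did not pass, with ratios from 0.762 for Fgf1 to 1.46 for Fgfr4.

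Transcript assignments within a gene were then compared between the libraries. In 20 members 2 or more transcripts had a level above 0, and in 6 of these the leading transcript differed between the libraries. These were Etv1, Fgf11, Fgf2, Fgfr3, Spred2 and Spry1. The widest was Spry1, where Spry1-203 held 95.02% in replicate 2 and 0% in replicate 1, and Spry1-201 held 0% and 93.8%. The authors' posterior mean TPM gave a smaller difference, with Spry1-203 at 60.7% in replicate 2 and 29.8% in replicate 1, and Spry1-201 at 30.5% and 61.5%. By posterior mean TPM the leading transcript differed in 7 of the 20 members, 5 of them among the 6 above: Fgf11 no longer did, and Fgf1 and Fgf7 did. Both Spry1 transcripts share the whole coding sequence of 939 bases and differ outside it, by 11 exon bases found in Spry1-203 alone and 41 in Spry1-201 alone. For each, the authors' posterior standard deviation of the count was 25.8 to 33.5 reads, beside 115 and 178 counts for the gene in replicates 2 and 1.

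**Figure D5:**
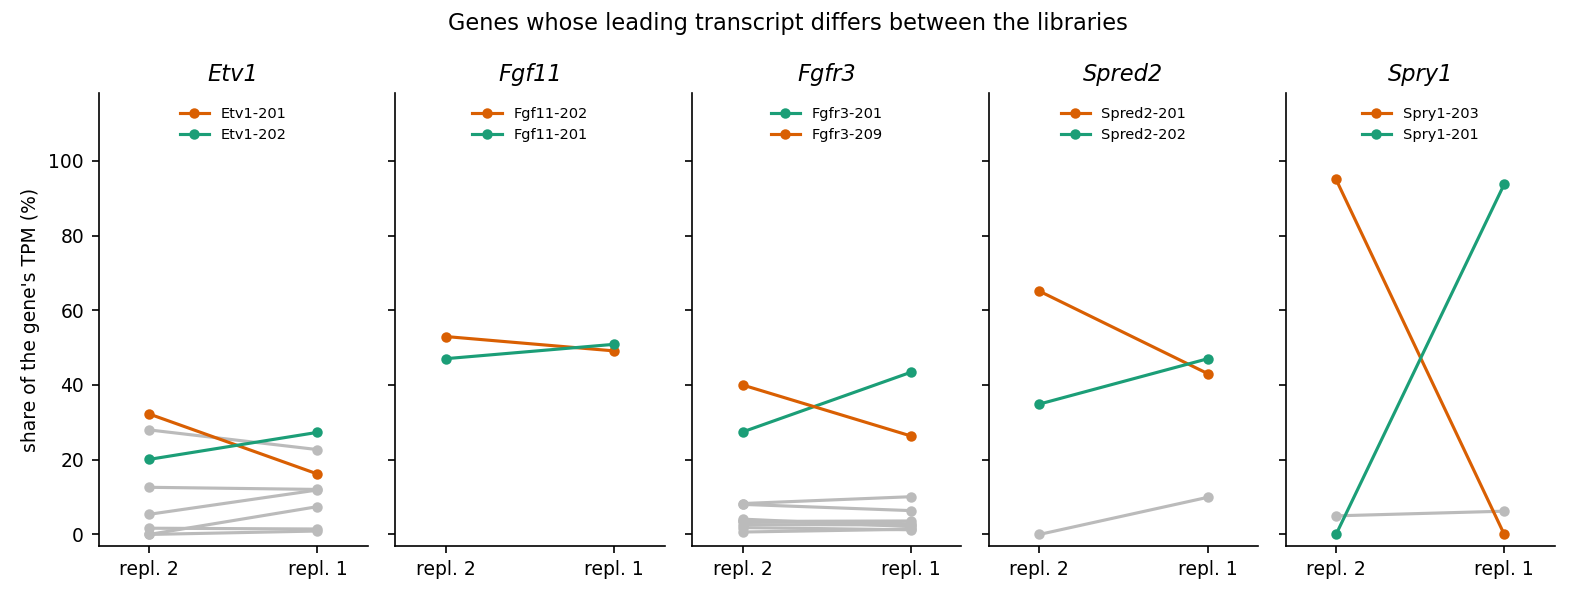
Share of the gene's TPM held by each transcript (vertical axis, percent) in replicate 2 and replicate 1 for the 5 detected members whose leading transcript differed. Orange is the leading transcript of replicate 2, green that of replicate 1, and grey the other transcripts of the gene. Lines cross from end to end in Spry1, where posterior mean TPM gives 60.7% and 29.8% for Spry1-203, and by a few percent in Fgf11.

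For Fgfr3 the leading pair differs in coding sequence by 3 bases. Fgfr3-209 held 40.0% in replicate 2 and 26.4% in replicate 1, and Fgfr3-201 held 27.4% and 43.4%. The start of the exon at which they part is shown, with the extra bases of Fgfr3-209 in capitals, from GENCODE M21 on mm10.
Fgfr3-209 (exon chr5:33733254-33733402, plus strand): CAGgtgtccttggaatctaactcctctatg
Fgfr3-201 (exon chr5:33733257-33733402, plus strand): gtgtccttggaatctaactcctctatg
The posterior standard deviation was 189 and 182 reads for Fgfr3-209 and 238 and 240 for Fgfr3-201 in replicates 2 and 1, against estimated counts of 795 and 742, and 555 and 1242. Both transcripts hold the IIIc exon, so the IIIc share does not depend on this pair.

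In Fgf11, Fgf11-202 held 53.0% in replicate 2 and 49.1% in replicate 1, and Fgf11-201 held the rest. Spred2-201 held 65.1% and 43.1%, against 34.9% and 47.0% for Spred2-202. For Etv1 the leading transcript was Etv1-201 in replicate 2 (32.2%, against 16.2% in replicate 1) and Etv1-202 in replicate 1 (27.3%, against 20.1% in replicate 2), while Etv1-203 was highest on average at 25.3%. Fgf2-201 held 16.0% in replicate 2 and 100% in replicate 1. The remaining 84.0% in replicate 2 went to a 322-base transcript that GENCODE M21 places in another gene, Gm43439, so the Fgf2 level there is uncertain.

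By TPM the leading transcript was the same in both libraries in the other 14 members. Etv5-201 held 99.1% on average, Spred1-201 97.1%, Fgf14-202 94.4% and Fgfr4-201 91.4%. Fgf1-201 held 79.5%, Fgfrl1-201 79.1%, Fgf18-201 72.4%, Fgf7-201 72.1% and Fgf3-202 69.7%. The leading share was 66.3% for Fgf13-202, 49.9% for Etv4-201, 40.0% for Fgf9-203, 36.7% for Fgfr1-202 and 32.7% for Fgfr2-207. The receptors with the most annotated transcripts, Fgfr2 with 26 and Fgfr1 with 15, were among those with the lowest leading share.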

How the data were processed

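Total RNA-seq of 2 libraries of mouse neural tube was analysed from gene and transcript tables, 1 pair per library, as the authors deposited them. Per the deposited notes, the build was mm10 and the annotation GENCODE M4; no aligner, quantifier or handling of strand is named there or in the labels. The deposited expected counts are, per the file headers, estimated reads per feature. The deposited TPM scale abundance over every feature, spike-ins included, and spike-ins held 12.6% and 13.03% of TPM in replicates 2 and 1. Deposited FPKM and posterior mean values served as alternatives. The authors' isoform percent is a transcript's share of its gene's TPM. The deposited posterior standard deviation of a count is a score in reads, and so is the deposited effective length a score in bases, used for floors.

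Genes and transcripts were named, placed and typed with GENCODE M21 (mm10) by identifier without version; sequences were read from its transcripts. IIIb and IIIc exons were found as coding exons of the receptor with the same neighbours that no coding transcript joins. Shares are of TPM. Rounded expected counts were scaled by TMM with edgeR 4.0.16 (R 4.3.3), whose quasi-likelihood test has no contrast in 1 group, and compared with an exact binomial test (SciPy 1.17.1). Size factors of DESeq2 1.42.0 served as another scaling. Ratios use counts as they are; log2 ratios add 0.5. The binomial call and the ratio interval were tested on simulated counts that held counting noise alone, with no added spread between libraries. Intervals are exact at 95%. No molecular identifiers are named, so intervals cover counting error only.

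The members and lists were chosen with earlier results of these data known. All members were named; for other pathway genes, the rule was the 4 highest, the lowest and any called. Some genes and sequences that this rule or the exon choice would name are not reported here.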

Additional observations from a re-analysis of the deposited data

How the results depend on the processing

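The count of 21 detected members was 27 at 0.5 TPM, 20 at 2 TPM, 23 after rescaling over mouse genes and 24 with posterior mean TPM, and 26 and 21 in replicate 2 and replicate 1 alone. The 1 member called between the libraries was Fgf7 with DESeq2, summed-count and spike-in scaling and with posterior mean counts too. It became 2 with no filter on low counts (Fgf6 and Fgf7) and 2 at 1.5-fold (Fgf7 and Fgf10), and 0 at a mean count of 50 or more, which leaves Fgf7 untested; in that last setting 10 members had an adjusted p under 0.05 at any fold. With posterior mean TPM, Fgfr2 held 24.8% and Fgfr4 1.60% of kinase receptor TPM, Fgf15 held 37.5% of secreted ligand TPM, and the IIIc shares were 98.5% for Fgfr1, 78.9% for Fgfr2 and 90.2% for Fgfr3. Alternatives chosen after seeing the data counted coding transcripts alone or counted transcripts with both exons as IIIb, and with the second the IIIc share of Fgfr1 was 96.2%. A further one, posterior mean TPM for the leading transcript, gave 7 members in which it differed between the libraries in place of 6. Another, without the Fgfr2 transcript that reaches Ctbp2, gave receptor shares of 40.8% for Fgfr1, 39.6% for Fgfr3 and 18.3% for Fgfr2. With spike-in scaling the log2 ratio of replicate 2 over replicate 1 turned to 0.051 for Fgf15 (-0.036 with TMM), 0.057 for Spry1 (-0.029 with TMM) and 0.033 for Etv4 (-0.054 with TMM), none past the test in either scaling. Etv5 no longer passed, and Fgfr3, Spry2 and Spry4 did. The cause of these shifts was not tested. The 10 secreted ligands with 10 counts or fewer are limited by depth. No paired analysis was possible because the study has 1 group.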
